A study of Mus musculus with 6 samples.

Results

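The transcripts analysed were those of the receptor chains for the common gamma chain cytokines, IL-4, IL-13 and TSLP in mouse bone marrow-derived basophils (BMBAs). Members were the rows of the deposited count table with 1 of 9 gene symbols, namely Il2ra, Il2rb, Il2rg, Il4ra, Il7r, Il9r, Il21r, Crlf2 and Il13ra1. All 9 were found among the 37043 symbols of the table. BMBAs are basophils grown in culture from bone marrow cells. Here the marrow came from wild-type C57BL/6J mice, was cultured over 7 days with 0.3 ng/mL of a cytokine that the labels leave unnamed and the methods name as IL-3, and yielded basophils by bead enrichment for CD49b. Of the 6 libraries, 3 were from BMBAs given PBS and 3 from BMBAs given 10 ng/mL IL-3, each for 6 h. Both groups had thus been grown with IL-3 beforehand, and no source used here says if PBS-treated cells still had that low dose. The study set this comparison up to ask what IL-3 changes in basophils, with a view to their leaving the bone marrow. The p-values below measure the spread between these cultures, and whether each came from a separate mouse is not stated.

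Type I cytokine receptors work as pairs or trios of chains, in which a ligand-specific chain is joined by a chain that several cytokines share. The common gamma chain (Il2rg) serves the receptors for IL-2, IL-4, IL-7, IL-9, IL-15 and IL-21 and signals with JAK3. The IL-4 receptor alpha chain (Il4ra) pairs with the gamma chain to bind IL-4 in the type I receptor, or with Il13ra1 to bind IL-4 or IL-13 in the type II receptor, and both forms act through STAT6. The TSLP receptor joins Crlf2 with the IL-7 receptor alpha chain (Il7r) and acts chiefly through STAT5. TSLP is an epithelial cytokine that can drive basophil growth apart from IL-3, while basophils are a source of IL-4 and IL-13.

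IL-3 moved the chains of this receptor group in both directions. By the quasi-likelihood test of edgeR, with calls at adjusted p values under 0.05, 4 of the 9 chains rose (Il2ra, Il4ra, Il2rg and Crlf2), 2 fell (Il7r and Il9r) and 3 were not called (Il2rb, Il21r and Il13ra1). Over all 16675 genes tested, 38.2% were called, 18.0% higher and 20.2% lower. In 6 of the 9 chains, the same 6 that were called, the IL-3 libraries were all higher or all lower than the PBS libraries, which held for 48.2% of all genes tested. Il2ra and Il4ra rose more than 2-fold and were called, as were 3.9% of all genes tested, and Il7r fell more than 2-fold, as did 5.68%. The median log2 fold change of the 9 chains was -0.22, against -0.0033 over all genes. Each chain passed the filter on low counts, but Il2rb would not have passed on its IL-3 libraries alone.

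Levels of different genes were compared per transcript length, as TPM, counts divided by transcript length and scaled to the same total in every library. This takes reads to cover whole transcripts alike, which was not checked. On this scale Crlf2 was the most abundant chain in PBS-treated BMBAs at 248 ± 10.4 TPM (SD, n = 3), followed by Il7r at 138 ± 5.56, Il2rg at 69.2 ± 3.69 and Il4ra at 29.9 ± 0.947 TPM. Il21r had 7.46 ± 0.202 TPM, Il13ra1 2.84 ± 0.628 and Il9r 2.12 ± 0.278 TPM, while Il2ra and Il2rb were below 1 TPM. Neighbours in this order had separate libraries except for Il13ra1 with Il9r and Il2ra with Il2rb. Both chains of the TSLP receptor together held 77.3% to 77.4% of the TPM summed over the 9 chains. This share depends on the length used. On group means, Crlf2 held 49.7% and Il7r 27.7%, against 57.4% and 24.1% with the longest transcript of each gene as divisor.

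After IL-3 the order changed. Crlf2 stayed first at 370 ± 15.8 TPM, Il2rg came second at 119 ± 7.31 and Il4ra the next at 83.6 ± 2.34 TPM, ahead of Il7r at 53.9 ± 3.24 TPM. Below them lay Il21r at 5.77 ± 0.809 TPM and Il2ra at 2.29 ± 0.177 TPM. Il13ra1 had 1.89 ± 0.205, Il9r 1.18 ± 0.160 and Il2rb 0.391 ± 0.292 TPM. No neighbours in this order overlapped with the mean transcript length as divisor, but Il4ra and Il7r did with the longest transcript, which gave 55.3 and 51.6 TPM. That divisor also let Il9r and Il2rb overlap and put Il13ra1 at 2.86 TPM above Il2ra at 1.55 TPM, so the order of those depends on the length used. The summed level of the 9 chains went from between 487 and 515 TPM to between 612 and 653 TPM, and the share of both TSLP receptor chains in it was 65.6% to 67.1%. On group means, Crlf2 held 57.9% and Il7r 8.44%, against 66.9% and 7.34% with the longest transcript.

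**Figure D1:**
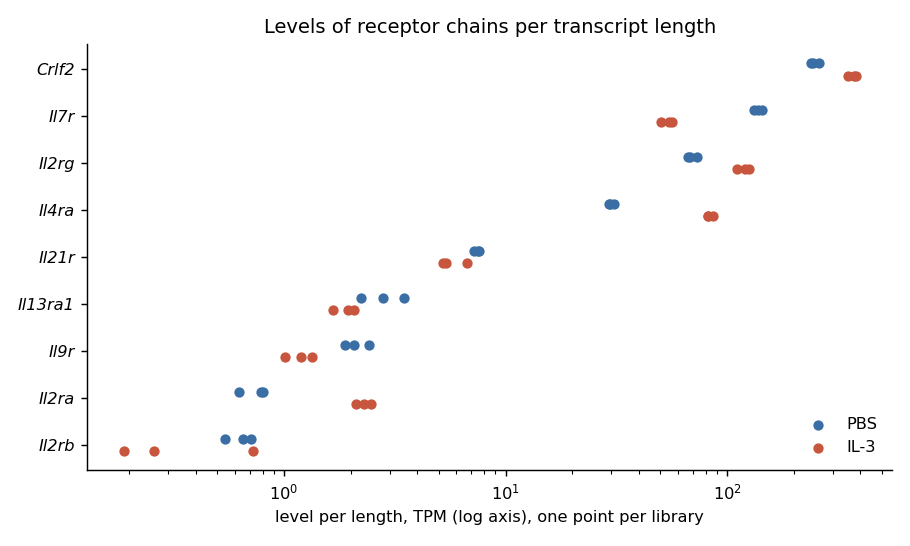
Level of each receptor chain in TPM (horizontal, log axis), with 3 PBS libraries in blue and 3 IL-3 libraries in red. Crlf2 stood highest in both groups, while Il7r went from 138 to 53.9 TPM and Il4ra from 29.9 to 83.6 TPM.

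Library totals ranged from 10537540 to 13999287 counts, so that 0 counts in a library would still allow 0.214 to 0.285 CPM (counts scaled to the size of the library), for counting error only. Scaling by library totals in place of TMM lowered the median log2 fold change of all genes by 0.16, and values below are relative to the TMM scaling. Basophil markers were abundant in every library (7 genes, summed at 10165 to 11342 CPM under PBS and 15181 to 15369 CPM under IL-3), led by Prss34 and Mcpt8. Of these 5 rose, beside 18.0% of all genes tested. Prss34 was not called (log2 fold change 0.012, and -0.15 and called lower with library totals), and Fcer1a, named after its values were seen, fell by 0.50 on the log2 scale. Markers of monocytes and macrophages, led by Lyz2 and C1qb, were also present, and 7 of 8 were called lower (20.2% of all genes tested were), from a sum of 11582 to 12491 CPM to 6019 to 6623 CPM. The eighth, Adgre1, named for its direction, rose with a log2 fold change of 0.53. Of the 8 mast cell markers 6 were tested and 4 of them rose, beside the same 18.0% of all genes tested. Cpa3 and Tpsb2 were most abundant, and the list summed to 841 to 945 CPM under PBS and 1438 to 1572 CPM under IL-3. In bulk RNA, fewer cells of a type and less RNA per cell cannot be told apart. These cell types can carry several of the 9 chains, and their part in the results was not tested.

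Crlf2 encodes the chain that gives the TSLP receptor its specificity, and it rose. The normalised level of Crlf2 was 226, 243 and 224 CPM in the PBS libraries and 383, 384 and 370 CPM in the IL-3 libraries. All IL-3 libraries were higher than all PBS libraries, and replicates of a group were close together. This was a log2 fold change of 0.71 (SE 0.0524, edgeR adjusted p 2.09e-08), a 1.64-fold rise. No 50-mer of its transcripts occurred in transcripts of another gene.

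Il7r, whose product is shared by the receptors for TSLP and IL-7, fell. It had 257, 246 and 231 CPM in the PBS libraries and 108, 97.7 and 109 CPM in the IL-3 libraries. The groups were far apart relative to their spread, with 244 ± 13 CPM against 105 ± 6.26 CPM (SD, n = 3 each). The log2 fold change of Il7r was -1.22 (SE 0.0630, edgeR adjusted p 2.73e-10), that is 2.33-fold lower in IL-3. Only 522 tested genes had a lower value, so that Il7r lay at the percentile 3.13 of all genes tested. The summed markers of monocytes and macrophages fell alongside, and a link to Il7r was not tested.

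Both TSLP receptor chains therefore moved apart within each library, which can be read without any scaling between libraries. There were 1.14, 1.01 and 1.03 counts of Il7r per count of Crlf2 in the PBS libraries and 0.282, 0.255 and 0.295 in the IL-3 libraries. The log2 ratio differed by -1.94 between the groups, a 3.83-fold drop, and the groups did not overlap. In an exact two-sided permutation test p was 0.10, the smallest value that 3 libraries against 3 can give, and it was also 0.10 after adjustment over 4 ratios. Per transcript length, Il7r stood at 0.533 to 0.599 of Crlf2 in PBS and at 0.134 to 0.155 in IL-3. With the longest transcript as divisor these ranges were 0.402 to 0.451 and 0.101 to 0.117, so the level of this ratio depends on the length used.

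The promoters of the 4 chains that form the TSLP receptor and the type I IL-4 receptor are shown, because all 4 of them were called and Il7r went against the other 3. Each line is taken from the 250 bases before the RefSeq transcription start (GRCm38.p6), 5′ to 3′ on the strand of the gene, without bases that GENCODE M21 annotates as exon, and capitals mark a match to TTCNNNGAA, the pattern of a STAT5 site. For Il7r 86 and for Il4ra 151 bases were left out in this way, since GENCODE places the first exon of a transcript farther upstream, and the Il7r stretch with its match lies inside the gene as GENCODE draws it.
Il7r, chr15:9529877-9530040, minus strand: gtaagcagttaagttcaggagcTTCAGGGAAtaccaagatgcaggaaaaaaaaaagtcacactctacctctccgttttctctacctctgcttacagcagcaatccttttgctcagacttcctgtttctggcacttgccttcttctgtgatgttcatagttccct
Crlf2, chr5:109558994-109559243, minus strand: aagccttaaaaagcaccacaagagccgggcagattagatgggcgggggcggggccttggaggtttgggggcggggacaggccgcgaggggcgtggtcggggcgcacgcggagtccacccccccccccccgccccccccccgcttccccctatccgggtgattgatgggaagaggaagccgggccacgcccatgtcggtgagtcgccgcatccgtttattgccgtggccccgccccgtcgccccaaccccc
Il4ra, chr7:125552021-125552119, plus strand: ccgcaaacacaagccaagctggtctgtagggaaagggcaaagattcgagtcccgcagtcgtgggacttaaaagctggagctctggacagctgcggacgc
Il2rg, chrX:101268256-101268505, minus strand: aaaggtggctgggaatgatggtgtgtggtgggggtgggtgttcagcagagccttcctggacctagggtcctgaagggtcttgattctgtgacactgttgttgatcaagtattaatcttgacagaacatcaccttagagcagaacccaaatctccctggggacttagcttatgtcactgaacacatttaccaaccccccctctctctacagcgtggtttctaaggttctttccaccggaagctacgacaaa

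Of the 8 member genes with a promoter in the RefSeq table, 1 held TTCNNNGAA in the window from 250 bases before to 50 bases after the start, and that was Il7r, with TTCAGGGAA beginning 142 bases before the start. The pattern reads alike on both strands and occurred in 8.30% of all 32851 promoters of this length. Il9r, the other chain called lower, had no match. None of the 8 held the same ends with 4 bases between them, the wider spacing known from STAT6 sites, which occurred in 6.95% of promoters. The full windows of 250 bases differed in composition, with 71.6% G and C for Crlf2, 59.6% for Il4ra, 49.2% for Il2rg and 44.0% for Il7r. A match is a description of these letters, and none of these data measure binding. A promoter for Il2rb was not analysed here.

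**Figure D2:**
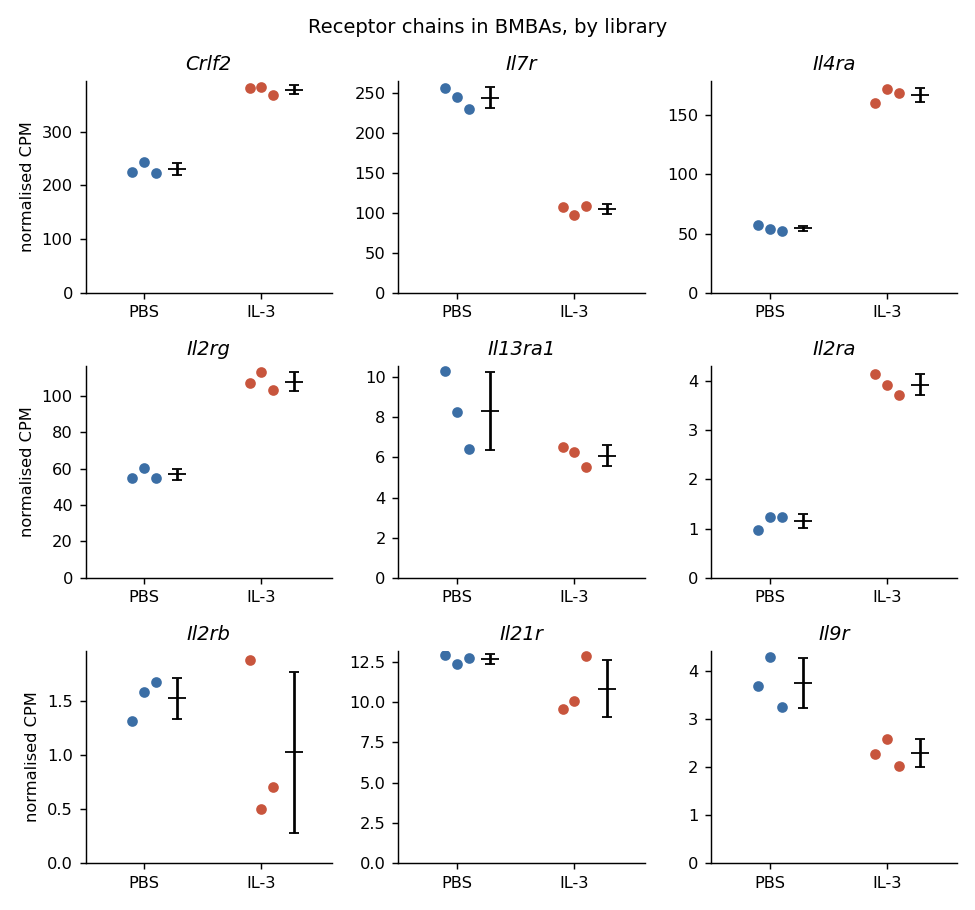
Normalised CPM (vertical, from 0) of each receptor chain in the 3 PBS (blue) and 3 IL-3 (red) libraries, with the mean and SD as a bar. The groups separated for Crlf2, Il7r, Il4ra, Il2rg, Il2ra and Il9r and overlapped for Il13ra1, Il2rb and Il21r.

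Il4ra, the chain that binds IL-4 and is shared by both IL-4 receptor types, rose most among the abundant chains. Its level was 56.9, 53.7 and 52.3 CPM with PBS and 160, 172 and 169 CPM with IL-3. Values within each group were alike and the groups were far apart. The log2 fold change of Il4ra was 1.62 (SE 0.0617, edgeR adjusted p 6.27e-12), or 3.07-fold, the smallest adjusted p of the 9 chains. A gene annotated as antisense to Il4ra, Gm44876, overlaps its exons but was too rare to be tested.

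Il2rg, the common gamma chain, also rose. Counts scaled to 55.1, 60.5 and 54.8 CPM in the PBS libraries and to 107, 113 and 103 CPM in the IL-3 libraries. The libraries of both groups were again separate. IL-3 raised it by a log2 fold change of 0.93 (SE 0.0667, edgeR adjusted p 1.69e-08), or 1.90-fold. Il2rg shared 27.5% of its 50-mers with Gm20489, an annotated gene on the same strand that overlaps its exons, so that the split of reads between these is uncertain. With the counts of both summed, an alternative added after the data were seen, the log2 fold change was 0.93.

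Il13ra1, the chain that makes the type II receptor with Il4ra, was scarce and was not called. It had 10.3, 8.24 and 6.43 CPM in the PBS libraries and 6.52, 6.25 and 5.51 CPM in the IL-3 libraries. The lowest PBS library lay below the highest IL-3 library, and the PBS libraries were spread widely. Its log2 fold change was -0.46 (95% interval -0.86 to -0.058, edgeR adjusted p 0.0673). PBS replicate 3 decided the call, since without it the log2 fold change was -0.61 with an edgeR adjusted p of 0.0174, while without PBS replicate 1 it was -0.27 with 0.316. Alternatives spanned adjusted p values from 0.0144 (library totals) to 1 (the test against a fold of 1.5).

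Transcripts of Il2rg and Il13ra1, the alternative partners of Il4ra, were also compared within each library. There were 5.32, 7.31 and 8.47 counts of Il2rg per count of Il13ra1 in the PBS libraries and 16.3, 18.0 and 18.6 in the IL-3 libraries. The IL-3 libraries all had higher ratios, and the log2 ratio differed by 1.35 between the groups (exact permutation p 0.10, the smallest possible, adjusted p 0.10). Il4ra in turn rose more than Il2rg, with 1.03, 0.888 and 0.955 counts of Il4ra per count of Il2rg under PBS and 1.496, 1.52 and 1.63 under IL-3. That log2 ratio differed by 0.69 with no overlap (exact permutation p 0.10, adjusted p 0.10). The decoy receptor for IL-13, Il13ra2, was rare and rose from 1.88, 2.63 and 2.47 CPM to 4.05, 4.08 and 3.96 CPM, with a log2 fold change of 0.79 (edgeR adjusted p 0.0133). Without PBS replicate 1 its adjusted p was 0.0555, and across all alternatives it lay between 0.00563 and 0.440.

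**Figure D3:**
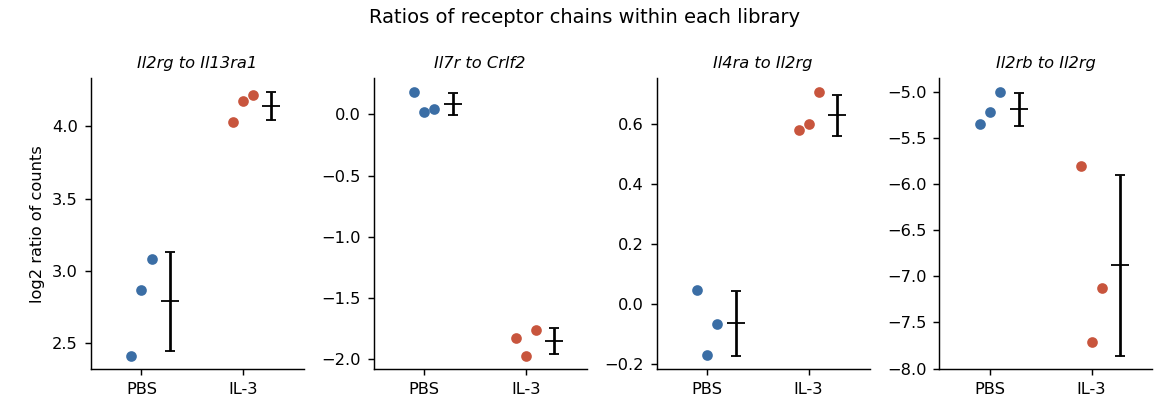
Log2 ratio of the counts of paired receptor chains within each library (vertical), with PBS in blue, IL-3 in red and the mean and SD as a bar. In all 4 panels the groups are separate, and Il2rb to Il2rg shows the widest spread.

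Il2ra, the alpha chain that raises the affinity of the IL-2 receptor, had the largest log2 fold change of the 9 chains at a low level. It had 12, 14 and 14 counts in the PBS libraries and 42, 47 and 48 counts in the IL-3 libraries, which is 0.982, 1.23 and 1.23 CPM against 4.15, 3.91 and 3.72 CPM. Every IL-3 library had more than every PBS library by a wide margin. The log2 fold change was 1.77 (SE 0.262, edgeR adjusted p 5.68e-05), and its 95% interval from 1.21 to 2.32 overlapped that of Il4ra, so the order of both is not firm.

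Il2rb, the signalling chain shared by the receptors for IL-2 and IL-15, was at the edge of detection. It had 16, 18 and 19 counts in the PBS libraries and 19, 6 and 9 counts in the IL-3 libraries. After scaling, IL-3 replicate 1 lay above every PBS library (1.88 CPM against 1.31, 1.58 and 1.67 CPM), whereas the other two lay below all of them. The log2 fold change of -0.62 was not called (95% interval -1.52 to 0.29, edgeR adjusted p 0.283). Without IL-3 replicate 1 it was -1.32 with an adjusted p of 0.0328, and without IL-3 replicate 2 it was -0.29 with 0.677, the range over the libraries left out, while the test against a fold of 1.5 gave an adjusted p of 1. Relative to Il2rg, Il2rb was lower in IL-3 by 1.69 on the log2 scale with no overlap (exact permutation p 0.10, adjusted p 0.10). With 1 library left out the difference ranged from -2.23, without IL-3 replicate 1, to -1.27, without IL-3 replicate 2. Il2rg itself rose, and Il2rb passed the filter on low counts only through its PBS libraries, the group where its mean is higher. No conclusion on Il2rb is therefore drawn from this ratio.

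Il9r, the specific chain of the IL-9 receptor, was called lower. It went from 45, 49 and 37 counts (3.68, 4.30 and 3.26 CPM) in the PBS libraries to 23, 31 and 26 counts (2.27, 2.58 and 2.02 CPM) in the IL-3 libraries. The groups did not overlap, but the gap between them was small. Its log2 fold change was -0.71 (SE 0.240, edgeR adjusted p 0.0290). This call was lost without PBS replicate 1 (adjusted p 0.0542), PBS replicate 2 (0.102), IL-3 replicate 1 (0.0641) or IL-3 replicate 3 (0.107) and in the DESeq2 Wald test (0.0960). Over all alternatives the adjusted p of Il9r ranged from 0.00837 to 0.674, and its log2 fold change from -0.87 to -0.60.

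Il21r, the specific chain of the IL-21 receptor, was not called. Its PBS libraries had 12.9, 12.4 and 12.8 CPM and its IL-3 libraries 9.58, 10.1 and 12.9 CPM. IL-3 replicate 3 lay among the PBS libraries and the other two below them. Its log2 fold change was -0.22 (95% interval -0.52 to 0.083, edgeR adjusted p 0.250). It was called lower only when libraries were scaled by their totals (-0.39, adjusted p 0.0379, the lowest over the alternatives, of which the highest was 1). Il21r is the next protein-coding gene after Il4ra on chromosome 7, 24 kb away on the same strand, with Il4ra at 125552120 to 125579474 and Il21r at 125603429 to 125633570 (GRCm38). The 95% intervals of these neighbours, 1.49 to 1.75 and -0.52 to 0.083, were apart.

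**Figure D4:**
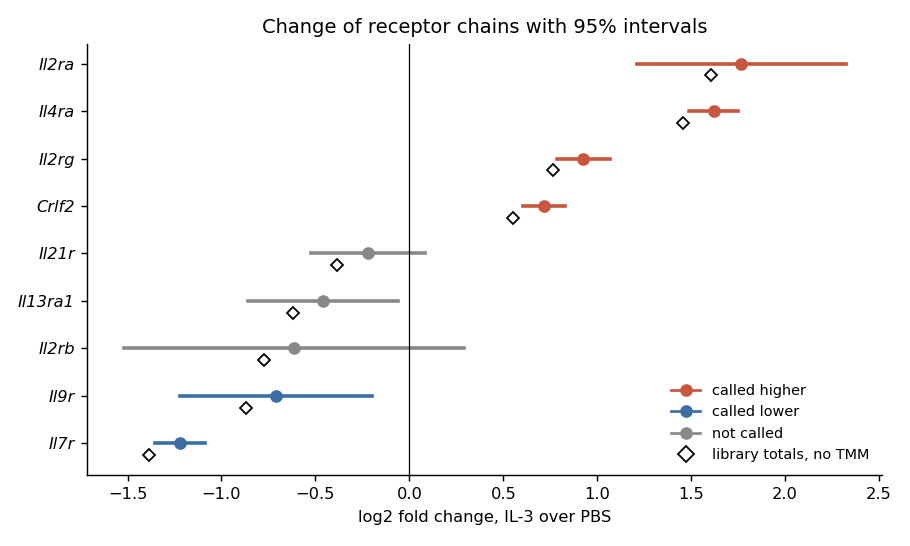
Log2 fold change of IL-3 over PBS (horizontal) of each receptor chain with its 95% interval, coloured by call, and the value after scaling by library totals as open diamonds. Il2ra and Il4ra lie highest at 1.77 and 1.62 and Il7r lowest at -1.22, and library totals turn no direction.

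Markers of lymphoid cells, which carry many of these chains, were measured alongside. Over all genes tested, 18.0% were called higher and 20.2% lower. Of 8 T cell markers 7 were tested and 0 were called by edgeR, with the sum at 106 to 119 CPM under PBS and 115 to 125 CPM under IL-3, most of it from Lat, a gene that basophils and mast cells also use, followed by Thy1. Cd3e, given as the defining T cell gene outside the naming rule, had 0.635 ± 0.237 CPM under PBS and 0.488 ± 0.337 CPM under IL-3 (SD, n = 3 each). It was the marker that was not tested. The other CD3 genes, also outside that rule, were higher. Cd3d had 2.03 ± 0.548 and 2.45 ± 0.524 CPM, and Cd3g 1.45 ± 1.49 and 0.984 ± 0.361 CPM. Of 7 NK cell markers only Nkg7 passed the filter, and it rose; the list summed to 6.46 to 8.24 CPM and 28.8 to 33.1 CPM, with Gzma and Klra8 at 0 in all libraries and Eomes, the next most abundant, at 0.541 and 0.480 CPM. The list of group 2 innate lymphoid cells summed to 370.3 to 427 CPM and 907 to 1074 CPM, most of it from Il1rl1, the IL-33 receptor that basophils also carry, while Gata3, likewise a defining gene, was at 0.972 and 0.881 CPM. Of its 6 tested genes Il1rl1 and Areg rose and Rora, the second most abundant, fell by 0.55 on the log2 scale, and Areg, also named for its values, passed the filter only through the IL-3 libraries. Of 7 B cell markers 4 were tested and 1 of them, Cd79b, was called lower; the list was at 8.84 to 12.4 CPM and 7.00 to 9.23 CPM, with Cd79b and Ebf1 most abundant.

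Other granulocytes and dendritic cells were checked in the same way. Their counts of called markers stand beside 18.0% higher and 20.2% lower over all genes tested. Eosinophil markers, with Ear2 and Prg2 most abundant, summed to 155 to 173 CPM and 95.02 to 136 CPM, and of 5 tested 1 rose and 3 fell. Neutrophil markers, with Retnlg and Mpo most abundant, summed to 77.1 to 114 CPM and 136 to 199 CPM, and of 6 tested 2 rose and 1 fell. One that rose, Ly6g, named for its values, had 0, 4 and 2 counts under PBS and 23, 35 and 22 under IL-3 and passed the filter only through the IL-3 libraries. Dendritic cell markers, with Itgax and Clec9a most abundant, summed to 86.0 to 90.6 CPM and 70.7 to 79.9 CPM, and 1 of 6 tested fell, with Cd209a at 0 in all libraries.

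Transcripts of the ligands of these receptors were measured in the same libraries, where the cells they came from cannot be told apart. Of the 7 ligand genes analysed, 3 were tested, of which 2 rose and 1 fell, beside 18.0% higher and 20.2% lower over all genes tested, while Il2, Il7, Il21 and Tslp had 0 to 9 counts in any library and were too rare to be tested. Il4, the ligand of both IL-4 receptor types, rose from 31.3, 30.7 and 29.8 CPM to 107, 148 and 151 CPM, and Il13, which acts through Il13ra1 and Il4ra, rose from 3.84, 5.70 and 4.40 CPM to 62.9, 97.8 and 105 CPM. IL-3 replicate 1 had the lowest IL-3 value of both genes. Il15, whose receptor uses Il2rb and Il2rg, fell from 49.98, 48.7 and 45.0 CPM to 14.6, 7.83 and 13.03 CPM, with a log2 fold change of -2.03 (SE 0.151, edgeR adjusted p 2.56e-08). Its groups were far apart. The fall ran alongside that of most monocyte and macrophage markers, and a link was not tested. Il15ra, the IL-15 specific chain, given because its list has no other uncalled gene, was at 3.36 ± 0.427 and 2.59 ± 1.23 CPM and was not called (log2 fold change -0.37, edgeR adjusted p 0.375). Its IL-3 libraries had 2.07, 3.997 and 1.71 CPM, and without IL-3 replicate 2 Il15ra was called lower (-0.83, adjusted p 0.0461, the lowest over the alternatives, of which the highest was 1). Il9 was not analysed here.

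JAK kinases and STAT factors carry the signal of these receptors. Of 11 such genes 2 rose, 2 fell and 7 were not called, beside 38.2% called over all genes tested. Library totals made it 5 that fell, and leaving out PBS replicate 2 made it 1. With the test against a fold of 1.5, 1 rose (Jak2) and 0 fell. Jak2, which serves the TSLP and IL-3 receptors, stood at 77.2 ± 0.864 CPM and rose to 163 ± 9.29 CPM (log2 fold change 1.07). Jak1, which binds to most ligand-specific chains of this family, stood at 255 ± 10.7 CPM and rose to 338 ± 21.3 CPM (log2 fold change 0.40). Stat3, used by the IL-21 receptor, fell by 0.25 on the log2 scale (edgeR adjusted p 0.00935). Scaling by library totals gave 0.24 for Jak1 and -0.41 for Stat3. The other gene called lower was Stat5b at -0.24 (edgeR adjusted p 0.0178), chosen after its values were seen. Its call was lost without PBS replicate 2 (0.0548), PBS replicate 3 (0.0623) or IL-3 replicate 1 (0.0717), and adjusted p values spanned 0.000472 to 1 over its alternatives. Jak3, the kinase of the gamma chain, was at 15.6 ± 1.71 and 12.8 ± 1.24 CPM (log2 fold change -0.30, edgeR adjusted p 0.0940), and Stat6 at 112 ± 7.19 and 109 ± 2.99 CPM (log2 fold change -0.047, edgeR adjusted p 0.605). Jak3 and Stat6 likewise lie outside the naming rule, and both were called lower with library totals (-0.46 and -0.21).

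Of 8 genes for feedback inhibitors of these receptors 6 rose, 0 fell and 2 were not called, against 18.0% higher and 20.2% lower over all genes tested. The 2 that were not called, phosphatases named after their values were seen, had log2 fold changes of -0.16 (Ptpn6, edgeR adjusted p 0.0975) and -0.070 (Ptpn11, 0.464). The median of the list was 1.44. With library totals 5 rose and 2 fell (Ptpn6 and Ptpn11), and without PBS replicate 3 there was 1 that fell (Ptpn6). Cish, which blocks STAT5 docking, rose by 4.01, Socs1, an inhibitor of JAK kinases, by 4.12 and Socs3 by 3.63 on the log2 scale. Among 15 genes known to respond to IL-4 and STAT6 in myeloid cells, 13 were tested, 7 rose and 2 fell, beside the same 18.0% and 20.2% of all genes, and 4 fell with library totals. This list holds Cish and Socs1 too, which other STAT factors also induce. Its next gene by adjusted p was Ccl24, an eosinophil chemokine, which had 2, 2 and 5 counts in the PBS libraries and 121, 79 and 90 counts in the IL-3 libraries. Ccl24 passed the filter on low counts only through its IL-3 libraries, the group where it is high. The genes that fell, chosen after their values were seen, were Tfrc at -0.72 and Chil3 at -0.27.

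Other type I cytokine receptor chains were set beside the 9 members to see where they differed. Of 24 such chains 18 were tested, of which 4 rose, 5 fell and 9 were not called, with a median log2 fold change of 0.11. These shares lie a little above the 18.0% higher and 20.2% lower of all genes tested. Among the members 6 of 9 were called, and no test of the difference from these chains was made. Csf2rb, the beta chain common to the IL-3, IL-5 and GM-CSF receptors, rose by 1.33 and Csf2rb2, the beta chain specific to IL-3, by 1.66 on the log2 scale, while Csf2ra, the specific chain for GM-CSF, fell by 0.53.

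**Figure D5:**
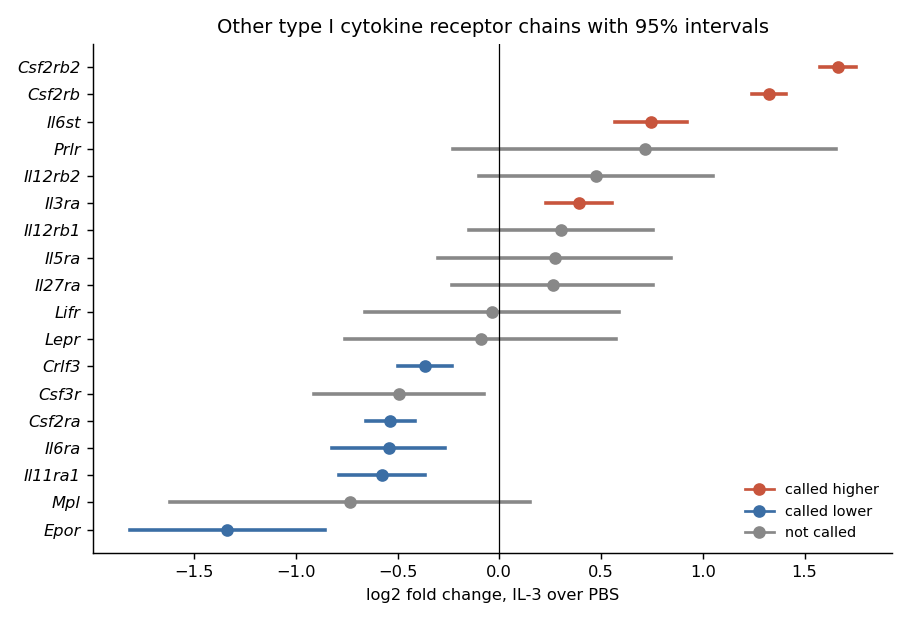
Log2 fold change of IL-3 over PBS (horizontal) with 95% interval for the 18 tested type I cytokine receptor chains outside the members, coloured by call. Csf2rb2 lies highest at 1.66, and the lowest chain, at -1.34, is Epor, named for its place in the plot.

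The genes whose pattern over the 6 libraries was most like that of Il4ra were Creb3l2, Cxcr2 and Dmxl2. Their log2 CPM values, centred on the mean of each gene, differed from those of Il4ra by a root-mean-square distance of 0.0303, 0.0411 and 0.0414. Creb3l2, a transcription factor of the endoplasmic reticulum membrane, went from 67.9 ± 1.34 to 205 ± 5.58 CPM (SD, n = 3 each). Cxcr2, a chemokine receptor, went from 60.5 ± 2.65 to 193 ± 7.95 CPM. Dmxl2 went from 107 ± 4.69 to 315 ± 12.0 CPM. With 2 groups of 3 libraries this measure mostly finds genes of like fold change.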

How the data were processed

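RNA of 3 PBS-treated and 3 IL-3-stimulated BMBA cultures was sequenced after whole-transcriptome amplification of poly(A) RNA. The authors trimmed reads with Cutadapt 3.4, mapped them to reference RNA with Bowtie2 and deposited raw counts per gene symbol, not normalised. The methods name GRCm38, the submitters' processing notes GRCm39. The sources used here give neither strand nor the handling of reads with several origins, and no molecular identifiers are described, so PCR copies count as reads. Coordinates and lengths are from GENCODE M21 (GRCm38), which held 96.12% of the symbols. TPM divides counts by the mean length of the annotated transcripts.

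The counts entered edgeR 4.0.16 (R 4.3.3). Genes were filtered with filterByExpr, scaled by TMM and compared by the two-sided quasi-likelihood F test with group as the only term, with Benjamini-Hochberg adjustment over all 16675 genes tested. Calls are at an adjusted p below 0.05. CPM are TMM-scaled, and the SE comes from the F value. Ratios used counts plus 0.5. Alternatives were DESeq2 1.42.0 (size factors, Wald test), library totals, 2 other filters, limma-voom (limma 3.58.1), the exact test, a test against a fold of 1.5, a replicate block and leaving out each library. On simulated counts for IL-3 against PBS, 79.4% of 194 genes changed 2-fold were called among 16460 tested. Changed genes were thus far fewer than the 38.2% called in the data, so the 79.4% cannot be carried over to the data.

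Members and lists were chosen with earlier results of these data known. Named genes are the 9 members, up to 3 called genes of each list by adjusted p, the 2 most abundant of each marker list and the 3 genes nearest to the member of smallest adjusted p. Genes named outside this rule are marked in the text.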

Additional observations from a re-analysis of the deposited data

How the results depend on the processing

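The 4 higher calls (Il2ra, Il4ra, Il2rg and Crlf2) and the lower call of Il7r held under all 15 alternatives run for them, with log2 fold changes of 1.61 to 1.82, 1.46 to 1.65, 0.76 to 0.97, 0.55 to 0.75 and -1.38 to -1.17. The number of chains called lower was 4 with library totals (which added Il13ra1 and Il21r), 1 with the DESeq2 Wald test, 1 with the test against a fold of 1.5, and 1 to 3 with 1 library left out. No chain changed sign. Over all genes, library totals gave 1698 higher and 5030 lower calls, by the shift of the scaling, and 25.2% of calls were then higher against 47.1%, while testing for changes beyond 1.5-fold called 709 higher and 883 lower. With each library dropped in turn, 2482 to 2787 were higher and 2883 to 3108 lower. Genes of the other lists numbered 20 higher and 10 lower, against 13 and 2 with the test against a fold of 1.5, and 18 lower with library totals, and 19 to 23 higher and 10 to 12 lower with 1 library left out. The cause of the change with DESeq2 was not tested.

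The replicate block gave 2842 higher and 3247 lower genes and changed no call of the 9 chains. Between PBS and IL-3 libraries of equal number, deviations from the group mean had correlations of -0.0087, -0.016 and -0.022, and pairing was therefore not assumed. All 4 ratios kept their direction under all alternatives run for them. Il2ra, Il2rb and Il9r had at most 49 counts in any library, and depth as a limit on their calls was not tested.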
